A study of Homo sapiens with 9 samples.

Results

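THZ531 binds covalently to the kinases CDK12 and CDK13 and inhibits them, and Huh7 is a hepatocyte-like line from a human liver cancer. The libraries described here are the 3 Huh7 libraries, of 9 in the series: 1 control recorded as not treated, 1 library from cells given 250 nM THZ531 and 1 from cells given 500 nM. They were chosen by cell line alone, and all genes of the count table were considered. The other 6 libraries came from Hep3B and SNU449 cells at the same doses. They supplied the error of the tests of single doses and between doses. In the fit over both doses the treated Huh7 libraries added to the error. Hep3B also served for comparison. How long the cells were treated differs between labels, with 48 h in the sample characteristics and 24 h in the protocol for Huh7 and Hep3B, and 48 h in both for SNU449. No vehicle is named for the controls, and no label says that the libraries came from separately grown cultures. The p-values therefore measure only the spread between these libraries, which may be technical and which also holds any difference between the doses.

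CDK12 and CDK13 each pair with cyclin K and phosphorylate the tail of RNA polymerase II while it moves through a gene. Loss of their activity is known to slow elongation and to favour early cleavage and polyadenylation inside introns, and long genes, among them DNA repair genes, are known to be sensitive. Poly(A) RNA sequencing counts the polyadenylated transcripts present at harvest, so short-lived and long-lived transcripts need not follow synthesis alike.

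Total counts were 14423043 in the control, 8557515 at 250 nM and 5701981 at 500 nM. The treated libraries were thus shallower, and 1 count was worth 0.0552, 0.13 and 0.269 CPM, the unit used below for counts relative to library size. The composition also moved with dose. The 100 most abundant genes took 19.9% (19.84 to 19.88%) of counts in the control, and their share was 31.0% (30.98 to 31.04%) with 250 nM and 42.8% (42.71 to 42.79%) with 500 nM (95% exact Clopper-Pearson intervals, counting error only). CPM below are scaled with TMM factors, which assume that most genes did not change, and a log2 ratio compares 1 treated library with the control after adding a prior count of 2. Scaling by total counts alone would lower each log2 ratio by about 0.48 at 250 nM and 0.94 at 500 nM. Hepatocyte markers were abundant in the control, with ALB at 2282 CPM, AFP at 12043, APOA1 at 323 and HNF4A at 249. The label names only the line. Genes of secreted plasma proteins summed to 22056 CPM in the control and mesenchymal genes to 10033 CPM. The genes of the inhibitor's targets were themselves measured. CDK12 stood at 117, 101 and 79.7 CPM in the control, 250 nM and 500 nM libraries, CDK13 at 42.7, 31.6 and 29.4 CPM and CCNK, which encodes cyclin K, at 51.8, 76.3 and 66.2 CPM. None passed the test, with fitted log2 fold changes over both doses of -0.36 ± 0.33 (adjusted p = 0.469) for CDK12, -0.48 ± 0.30 (adjusted p = 0.283) for CDK13 and 0.46 ± 0.31 (adjusted p = 0.315) for CCNK, whose sign turned under total-count scaling.

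Over both doses together more Huh7 genes rose than fell. Of 15479 genes tested, 2059 (13.3%) were higher and 935 (6.04%) lower than in the control at an adjusted p under 0.05. Of the risers 68.9% were protein-coding, against 94.1% of the fallers. The median gene span was 6.46 kb in the risers and 48.1 kb in the fallers. The median log2 ratio of the 2059 was 1.78 at 250 nM and 2.55 at 500 nM, and that of the 935 was -1.21 and -1.65, against medians of -0.00 and -0.07 over all genes tested. All kept their direction at both doses, as a call over both doses favours. The ratio was the larger one at 500 nM for 1862 of the risers (90.4%) and 759 of the fallers (81.2%). With TMM scaling the rises were also larger than the falls, with 740 risers and 12 fallers changed at least 8-fold. With total-count scaling that order turned, and the same genes had medians of 1.34 at 250 nM and 1.65 at 500 nM for the risers and -1.69 and -2.57 for the fallers. The 2 doses share the single control library, whose own deviation enters both ratios and is not in the error.

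Tested dose by dose, 1703 genes (11%) were higher and 790 (5.1%) lower at 250 nM, and 3232 (20.9%) were higher and 2630 (17%) lower at 500 nM. In the direct test of 500 against 250 nM, edgeR called 0 genes (0%), with 3576 at an unadjusted p under 0.05 and a smallest adjusted p of 0.148. DESeq2 called 365 there. With total-count scaling the split turned, with 1212 genes higher and 3562 lower over both doses, 1066 and 2942 at 250 nM, and 1743 and 7239 at 500 nM. With no filter the split turned at 500 nM alone, with 3415 genes higher and 3623 lower. It did not turn over both doses, with 2345 and 1565, or at 250 nM, with 2012 and 1331. These tests rest on few libraries. The call over both doses covered 2994 genes, and it covered 1994 without the Hep3B library at 250 nM and 1860 without that at 500 nM. Without 1 treated Huh7 library the fit compares the other dose alone with the control, so it is no longer a call over both doses. Of the 2059 risers 966 were called again under each removal of 1 library, and of the 935 fallers 393 were. With a single Hep3B treated library left, the error of the dose tests came from SNU449 alone, a line whose treated libraries differed little, and the direct test then called 5910 genes without the 250 nM and 6032 without the 500 nM Hep3B library. At 250 nM the calls then numbered 7664 and 8291, and at 500 nM 9377 and 9628. Without 1 treated SNU449 library, at 250 or at 500 nM, they numbered 1348 and 1345 at 250 nM, 3676 and 3683 at 500 nM, and 15 and 18 in the direct test.

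**Figure D1:**
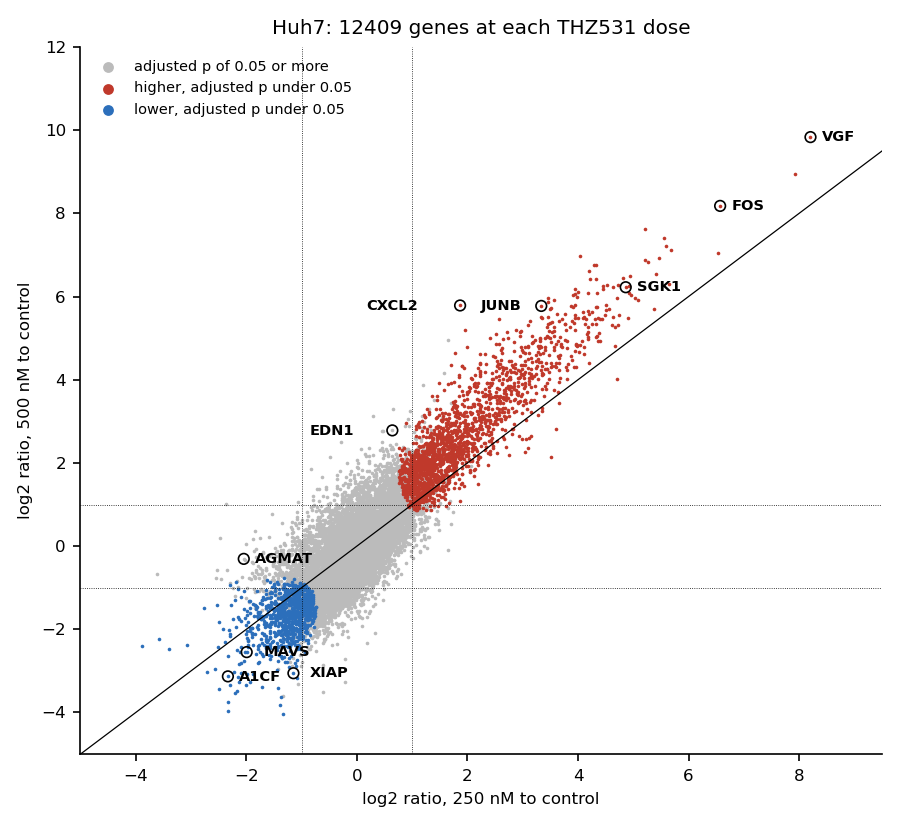
Log2 ratio to the control at 250 nM (horizontal) and 500 nM (vertical) for the 12409 genes with a mean of at least 2 CPM over the 3 Huh7 libraries, each dot a gene, with circles around the named genes, dotted lines at 2-fold and a solid line where the doses are equal. Called risers lie mostly above the solid line and called fallers mostly below it, which is the larger change at 500 nM of 1862 of 2059 risers and 759 of 935 fallers.

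The largest rises came from near silence. VGF, a neuropeptide precursor, had 0.442, 173 and 534 CPM in the control, 250 nM and 500 nM libraries. Its fitted log2 fold change over both doses, given with its standard error, was 9.61 ± 0.89 (adjusted p = 0.000733). AMH, the anti-Mullerian hormone, had 0.221, 88.6 and 179.6 CPM, a log2 fold change of 9.18 ± 0.82 (adjusted p = 0.000733). Its start lies 629 bases after the end of SF3A2 on the same strand, and SF3A2 itself had a log2 ratio of 2.25 at 500 nM. S100A14, a calcium-binding protein, had 0.331, 44.1 and 63.0 CPM and starts 1800 bases after S100A13. MEX3B, an RNA-binding protein, had 3.86, 206 and 558 CPM, a log2 fold change of 6.62 ± 0.85 (adjusted p = 0.0018). DLX2, a homeobox transcription factor, had 0.386, 20.3 and 60.1 CPM. In each of these the 500 nM library was the highest and the control held fewer than 5 CPM. VMO1, S100A2 and ZCCHC12 completed the list of the 10 largest coding rises at a mean of at least 10 CPM. FOS and the histone gene HIST1H4C, both described below, are also on it. Genes starting within 5 kb after another gene on the same strand made up 13.8% of the coding genes that rose at least 8-fold and 6.31% of all coding genes tested. Whether reads running on from the upstream gene enter these counts was not tested.

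Immediate early transcription factors, which cells switch on within minutes of a stimulus, rose as a group. Of 20 tested, 15 rose and 0 fell over both doses, beside 13.3% and 6.04% of all genes, and the median log2 ratio was 1.71 at 250 nM and 2.86 at 500 nM. FOS, a subunit of the AP-1 factor, had 1.71, 176 and 538 CPM in the 3 libraries in order of dose and a log2 fold change of 7.69 ± 0.92 (adjusted p = 0.0015). Its relative FOSB had 1.49, 29.3 and 82.1 CPM, with ERCC1 overlapping on the other strand. JUNB, a partner of FOS, had 19.5, 198 and 1074 CPM and changed by 5.03 ± 1.07 (adjusted p = 0.00998); HOOK2 overlaps it on the other strand. In all of them the control was lowest, and the step up to 250 nM exceeded that from 250 to 500 nM on the log2 scale. EGR1, a zinc finger factor, had 8.61, 285 and 549.9 CPM, a log2 fold change of 5.60 ± 0.63 (adjusted p = 0.00128). KLF6, another zinc finger factor, had 45.3, 365 and 1160.4 CPM and ATF3, a stress-induced factor, had 12.1, 56.7 and 139 CPM. Without any 1 library 12 of the 15 calls held. With total-count scaling the median was still 1.94 at 500 nM.

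Early response genes that do not encode transcription factors moved likewise. Of 25 tested 14 were higher and 0 lower, beside 13.3% and 6.04% of all genes. The medians of the 25 were 1.68 and 2.64. SGK1, a kinase that regulates ion transport, had 45.9, 1341 and 3444 CPM, a log2 fold change of 5.70 ± 0.65 (adjusted p = 0.00128). GADD45B, a stress sensor upstream of MAP kinases, had 40.2, 623 and 1893 CPM and changed by 4.97 ± 0.68 (adjusted p = 0.00193). IER2, a nuclear immediate early protein, had 30.0, 452 and 1617 CPM. TXNIP, which inhibits thioredoxin and glucose uptake, had 2.87, 51.3 and 134 CPM. All 4 were lowest in the control and highest at 500 nM, and 13 of the 14 calls held without any 1 library.

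Promoters of some of these genes are shown because the genes rose together. Each is the RefSeq window (GRCh38.p14) from 250 bases before to 50 bases after the annotated start, printed 5′ to 3′ on the gene's strand, with capitals at matches on either strand to the TATA element TATAAA, the CCAAT box, the cyclic AMP response element TGACGTCA or the CArG box, by which serum response factor binds. FOS lies at chr14:75278578-75278877 (plus strand), JUNB at chr19:12791236-12791535 (plus strand), EGR1 at chr5:138465229-138465528 (plus strand), VGF at chr7:101165520-101165819 (minus strand) and HIST2H2BE at chr1:149886633-149886932 (minus strand). MAVS, at chr20:3846584-3846883 (plus strand), is a gene that fell and is shown for contrast.
FOS: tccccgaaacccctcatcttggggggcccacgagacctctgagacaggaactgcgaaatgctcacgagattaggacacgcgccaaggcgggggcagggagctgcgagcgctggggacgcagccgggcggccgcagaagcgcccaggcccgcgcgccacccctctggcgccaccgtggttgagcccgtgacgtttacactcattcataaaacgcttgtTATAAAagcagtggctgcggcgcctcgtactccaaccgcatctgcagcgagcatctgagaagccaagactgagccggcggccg
JUNB: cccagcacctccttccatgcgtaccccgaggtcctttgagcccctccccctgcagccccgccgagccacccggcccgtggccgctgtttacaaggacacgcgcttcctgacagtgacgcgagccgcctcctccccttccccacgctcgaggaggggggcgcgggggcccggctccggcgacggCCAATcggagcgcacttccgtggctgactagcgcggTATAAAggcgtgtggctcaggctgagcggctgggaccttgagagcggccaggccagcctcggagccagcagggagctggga
EGR1: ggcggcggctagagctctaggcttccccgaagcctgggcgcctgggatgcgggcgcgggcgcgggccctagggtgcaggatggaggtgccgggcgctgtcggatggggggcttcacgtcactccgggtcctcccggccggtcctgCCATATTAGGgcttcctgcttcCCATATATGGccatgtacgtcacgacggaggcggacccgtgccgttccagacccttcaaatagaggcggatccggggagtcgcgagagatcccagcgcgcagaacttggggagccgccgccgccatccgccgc
VGF: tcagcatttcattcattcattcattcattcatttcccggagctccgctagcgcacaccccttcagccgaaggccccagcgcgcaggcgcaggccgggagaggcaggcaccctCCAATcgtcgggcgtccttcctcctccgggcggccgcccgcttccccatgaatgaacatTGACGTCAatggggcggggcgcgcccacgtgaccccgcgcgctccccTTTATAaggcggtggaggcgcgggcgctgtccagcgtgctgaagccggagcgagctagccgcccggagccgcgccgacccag
HIST2H2BE: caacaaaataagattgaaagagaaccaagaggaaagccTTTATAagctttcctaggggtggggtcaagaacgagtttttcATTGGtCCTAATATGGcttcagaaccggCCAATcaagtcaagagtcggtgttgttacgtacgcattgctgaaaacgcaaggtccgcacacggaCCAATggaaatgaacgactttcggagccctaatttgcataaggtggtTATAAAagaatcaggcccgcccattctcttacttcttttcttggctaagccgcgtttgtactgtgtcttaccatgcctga
MAVS: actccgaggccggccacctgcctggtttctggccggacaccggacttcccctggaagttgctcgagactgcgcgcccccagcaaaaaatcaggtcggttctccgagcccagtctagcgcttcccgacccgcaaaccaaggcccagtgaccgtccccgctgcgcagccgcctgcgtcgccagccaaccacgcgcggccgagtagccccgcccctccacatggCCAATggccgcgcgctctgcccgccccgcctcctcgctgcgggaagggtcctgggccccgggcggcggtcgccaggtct
FOS, JUNB, VGF and HIST2H2BE hold a TATAAA, that of VGF on the opposite strand only. EGR1 holds 2 CArG boxes and HIST2H2BE 1, and VGF holds a TGACGTCA. A RefSeq window was found for 10715 of the coding genes tested (81.2%). TATAAA was in 5.86% of these, in 11.03% of those that rose, in 21.1% of those that rose at least 8-fold and in 5.42% of those that fell. Among genes under 10 kb the shares were 7.86% of all, 13.4% of risers and 22.0% of risers of at least 8-fold. CCAAT was in 36.7% of all windows and 42.7% of risers' windows, TGACGTCA in 3.25% and 4.50%, and the CArG box in 1.05% and 2.21%. Among risers of at least 8-fold these 3 shares were 44.5%, 3.83% and 1.91%. The AP-1 site TGANTCA was in 4.43% of all windows and 4.78% of risers' windows. The EGR site GCGTGGGCG was in 1.30% and 1.29%. Of the 16 windows of immediate early transcription factors 4 held a TATAAA and 2 a CArG box. Of the 18 histone windows 13 held a TATAAA and 17 a CCAAT. A match describes the letters and not the binding of a factor.

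Histone genes rose too. Of 20 replication-dependent and linker histone genes tested 14 were higher and 0 lower, beside 13.3% and 6.04% of all genes. The medians of the 20 were 2.19 at 250 nM and 3.13 at 500 nM. HIST2H2BE, an H2B gene, had 10.3, 354 and 633 CPM, a log2 fold change of 5.58 ± 0.60 (adjusted p = 0.00125). HIST1H2BG, another H2B gene, had 1.1, 38.9 and 82.4 CPM. HIST1H4C, an H4 gene, had 0 counts in the control and 51 and 90 counts at the doses, at least 40.2-fold and 146-fold higher against a floor of 3 counts in the control. HIST1H1C, a linker histone, had 71.2, 299 and 446 CPM. H2AFX, the variant histone that is phosphorylated at DNA breaks and has a polyadenylated transcript, had 107, 386 and 572 CPM, a log2 fold change of 2.16 ± 0.40 (adjusted p = 0.00531). The lowest level was in the control in each. Histone genes took 0.0413% (0.04022 to 0.04232%), 0.111% (0.1085 to 0.113%) and 0.134% (0.1307 to 0.1367%) of all counts. Most mRNAs of replication-dependent histones end in a stem loop without a poly(A) tail, so poly(A) libraries count only a part of them, and these genes form families of similar sequence. Without any 1 library 11 of the 14 calls held.

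Genes without a protein product rose more often than coding genes. Over both doses 641 of 2267 such genes were higher (28.3%) against 10.7% of coding genes, and 55 were lower. Antisense RNAs were higher in 221 of 688 (32.1%), lincRNAs in 197 of 724 (27.2%) and processed pseudogenes in 64 of 176 (36.4%). MIR663AHG, a microRNA host gene, had 1.6, 64.8 and 342 CPM, a log2 fold change of 6.97 ± 1.07 (adjusted p = 0.00256). RP13-516M14.1 had 0.386, 16.0 and 40.1 CPM. RP11-667F14.1 had 0.221, 6.65 and 31.0 CPM and lies opposite TES. Fallers were fewer and included LINC01314, with 34.9, 7.83 and 3.5 CPM, and LINC00261, a lincRNA next to the hepatocyte factor gene FOXA2, with 237, 93.1 and 53.9 CPM. The libraries were stranded, but whether counting used the strand is not given in the sources used here, so reads of an antisense RNA and of its partner may not be separated. Pseudogene reads may belong to a parent gene. Genes silent in the controls could pass the filter through the treated libraries, whereas genes seen only in the Huh7 and Hep3B controls could not. Among low genes the filter thus favours risers, and 114 called risers of any biotype had 0 counts in the Huh7 control. How far the filter sets these shares was not tested.

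Gene length went with direction. Of coding genes that span under 5 kb, 40.3% rose and 2.25% fell, with a median log2 ratio of 0.60 at 250 nM and 1.30 at 500 nM. Of those from 50 to 100 kb, 2.86% rose and 9.80% fell, with medians of -0.20 and -0.66. Longer genes were grouped into 100 to 200, 200 to 500 and above 500 kb. Their medians were -0.22, -0.29 and -0.39 at 250 nM, and -0.71, -0.68 and -0.53 at 500 nM. The shares that fell were 10.7%, 11.1% and 10.7%, so at 500 nM the trend levelled off. Genes of 1 exon rose in 45.5% of 242 and fell in 0.826%, and those of 20 or more exons rose in 4.49%. Across 11364 genes Spearman's rho between span and log2 ratio was -0.277 at 250 nM and -0.462 at 500 nM. It was -0.230 and -0.299 in Hep3B and 0.025 and 0.109 in SNU449. These correlations are across genes that share libraries and are a description. With total-count scaling the median at 500 nM was 0.36 under 5 kb and -1.60 from 50 to 100 kb, so the order of the bins held while the zero shifted.

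**Figure D2:**
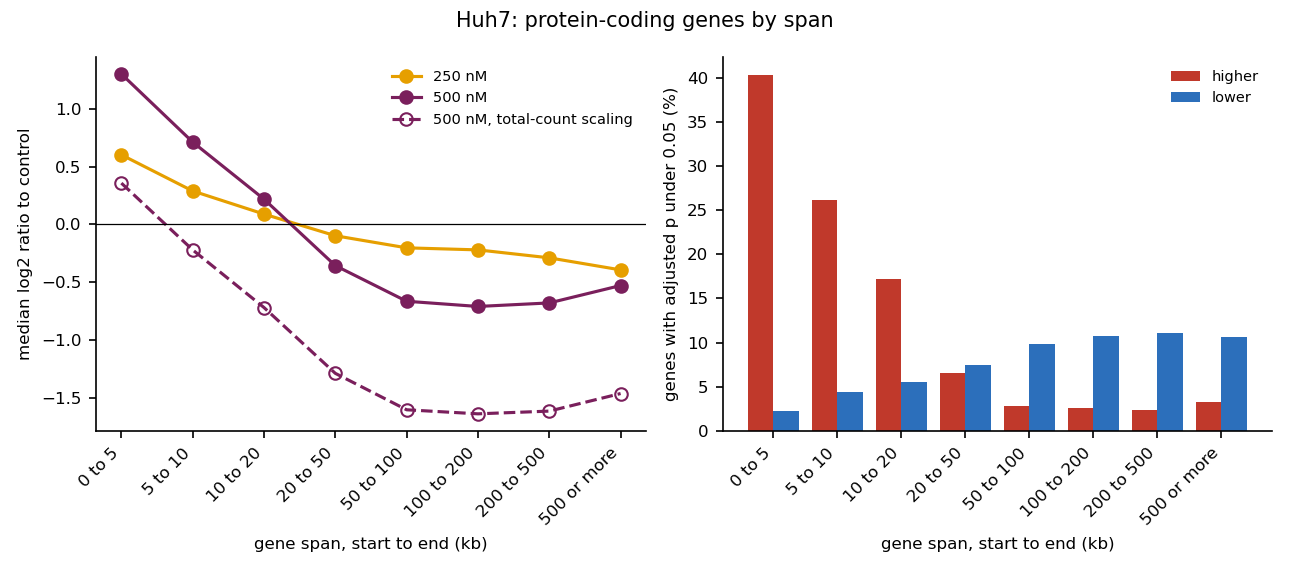
Left, median log2 ratio to control of Huh7 coding genes by span in kb, at each dose and at 500 nM with total-count scaling. Right, the share of genes in each bin called higher or lower over both doses; it falls from 40.3% to 3.28% for risers and rises from 2.25% to 10.7% for fallers between the first and last bin.

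Genes of translation and respiration, most of them short, shifted upward. The counts over both doses are read beside 13.3% higher and 6.04% lower of all genes. Of 78 cytoplasmic ribosomal protein genes 38 rose and 0 fell, with medians of 0.86 and 1.54 at 250 and 500 nM. Their summed level was 25506, 51100.0 and 86936 CPM in the 3 libraries in order of dose. All 13 mitochondrially encoded mRNAs had ratios above 0 at both doses, and 12 rose, with medians of 1.31 and 2.39. MT-CO1, a core subunit of cytochrome oxidase, had 6271, 20103 and 46452 CPM and changed by 2.41 ± 0.57 (adjusted p = 0.0147). MT-ND6, the one mRNA of the light strand, had 76.6, 109.7 and 166 CPM and did not pass the test over both doses (0.84 ± 0.36, adjusted p = 0.117). In the 500 nM test all 13 were higher, beside 20.9% of all genes. MT-ND6 changed there by 1.11 ± 0.28 (adjusted p = 0.0119), a call lost without either treated SNU449 library and with total-count scaling. Mitochondrial genes together took 3.85% (3.837 to 3.857%) of counts in the control, and their share was 8.14% (8.126 to 8.162%) with 250 nM and 13.1% (13.05 to 13.1%) with 500 nM. Their transcription uses a separate polymerase and not RNA polymerase II. Nuclear genes of the respiratory chain rose in 13 of 42, with medians of 0.56 and 1.15, and ATP5B, a subunit of ATP synthase, had 809, 2665 and 4238 CPM. Mitochondrial ribosomal protein genes did not shift as a group, with 2 of 38 higher, 2 lower and medians of -0.15 at both doses. Hosts of small nucleolar RNAs rose in 11 of 16, with medians of 1.07 and 1.98, and SNHG1 among them had 117, 617 and 1407 CPM. The calls of these groups are sensitive to 1 library. Without the Hep3B library at 500 nM 10 of the 38 ribosomal, 0 of the 12 mitochondrial, 6 of the 13 respiratory and 5 of the 11 host gene calls held. With total-count scaling the medians at 500 nM were 0.60, 1.44, 0.21 and 1.04.

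Hepatocyte genes moved in opposite ways. Genes of secreted plasma proteins rose in 15 of 24 and fell in 0, beside 13.3% and 6.04% of all genes. The medians of these plasma protein genes were 1.13 and 2.25. ALB, which encodes albumin, had 2282, 6996 and 13287 CPM, a log2 fold change of 2.15 ± 0.52 (adjusted p = 0.0166). AFP, the fetal counterpart of albumin and the most abundant of these, had 12043, 24775 and 55305 CPM. It missed the threshold over both doses (1.73 ± 0.59, adjusted p = 0.0569) and passed at 500 nM, at 2.20 ± 0.41 (adjusted p = 0.00324). SERPINC1, which encodes antithrombin, had 7.4, 31.7 and 68.7 CPM. Apolipoprotein genes rose in 6 of 8, with medians of 1.36 and 2.32. APOA1, the main protein of high-density lipoprotein, had 323, 1256 and 2528 CPM and changed by 2.55 ± 0.50 (adjusted p = 0.00664). APOE had 529, 1739 and 4014 CPM. APOB, the structural protein of very-low-density lipoprotein, was the exception, with 2582, 954 and 1620.1 CPM. It was lower in the 250 nM test, at -1.44 ± 0.33 (adjusted p = 0.02), and did not pass at 500 nM, at -0.67 ± 0.33 (adjusted p = 0.134), nor over both doses, at -1.004 ± 0.43 (adjusted p = 0.119). Without either treated SNU449 library the 250 nM call was lost, and without either treated Hep3B library, or with total-count scaling, the 500 nM test passed. Without the Hep3B library at 500 nM 2 of the 15 plasma protein calls and 1 of the 6 apolipoprotein calls held. With total-count scaling the medians at 500 nM were 1.31 and 1.38.

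Hepatocyte transcription factors, which drive those genes in liver, ran the other way. Of 20 tested 5 fell and 1 rose, beside 6.04% and 13.3% of all genes. The medians of the 20 were -0.50 at 250 nM and -1.21 at 500 nM. HNF4G had 15.8, 6 and 2.42 CPM, a log2 fold change of -1.82 ± 0.44 (adjusted p = 0.0166). NR5A2 had 88.2, 42.3 and 28.5 CPM and ONECUT1 had 21.6, 9.39 and 8.35 CPM. PPARA, the regulator of fatty acid oxidation, had 13.1, 5.87 and 4.04 CPM and also fell. HNF4A, a central factor of the hepatocyte program, had 249, 184 and 90.8 CPM. It did not pass over both doses (-0.85 ± 0.41, adjusted p = 0.159) but was lower in the 500 nM test, at -1.46 ± 0.32 (adjusted p = 0.00667). In that test 12 of the 20 fell and 2 rose, beside 17% and 20.9% of all genes. NR2F2, a nuclear receptor, rose, with 67.7, 178 and 258 CPM; the call was lost without the Huh7 library at 500 nM. Calls for ONECUT1 and PPARA were lost without either treated SNU449 library, and those of HNF4G and NR5A2 held under each removal of 1 library.

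**Figure D3:**
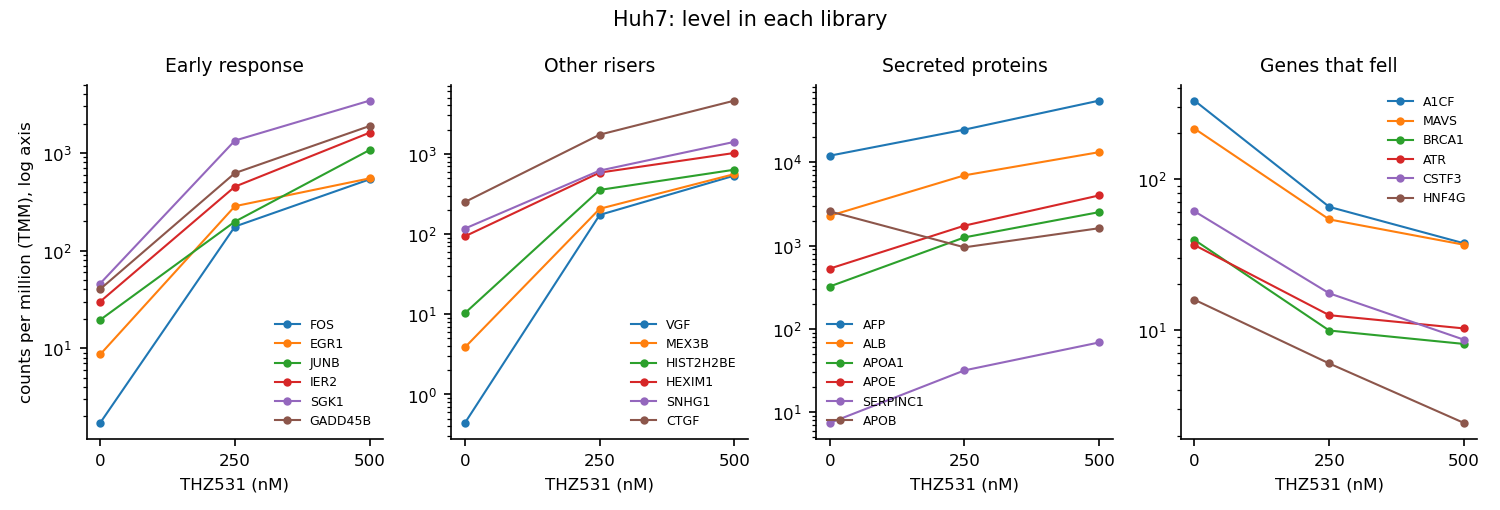
Level of 24 named genes in each Huh7 library, in TMM-scaled CPM on a log axis against THZ531 dose, 1 library per point and no error bars. Early response genes, other risers and secreted proteins other than APOB climb at both doses, and the genes of the last panel fall.

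The largest falls hit genes of varied roles. A1CF, the cofactor for editing of APOB mRNA, had 329, 65.2 and 37.4 CPM, a log2 fold change of -2.67 ± 0.36 (adjusted p = 0.00225). ATP2B2, a plasma membrane calcium pump, had 40.1, 7.83 and 2.42 CPM and changed by -2.85 ± 0.45 (adjusted p = 0.00272). This was the largest fall among called coding genes with a mean of at least 10 CPM. CHST9, a carbohydrate sulfotransferase, had 59.0, 11.9 and 5.66 CPM. MAVS, the mitochondrial adaptor of antiviral RNA sensing, had 215, 53.9 and 36.6 CPM and changed by -2.24 ± 0.34 (adjusted p = 0.00256). CSTF3, a subunit of the cleavage stimulation factor that acts in polyadenylation, had 60.9, 17.5 and 8.62 CPM and changed by -2.18 ± 0.36 (adjusted p = 0.00337). PRLR, the prolactin receptor, had 52.4, 15.9 and 4.85 CPM; its call was lost without either treated Hep3B library. The control was the highest library in each, and the level at 500 nM was below that at 250 nM. For ABCC6, an ATP-binding cassette transporter, and ACOT13, a thioesterase that C6orf62 overlaps on the other strand, the doses were about level, with 26.2, 5.22 and 5.92 CPM and 34.0, 6.39 and 6.73 CPM. KCNJ16, a potassium channel, and LIN7A, a scaffold protein, completed the 10 largest coding falls at a mean of at least 10 CPM.

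Genes of homologous recombination and the Fanconi anaemia pathway, which repair double-strand breaks and crosslinks, included 8 that fell and 0 that rose among 33. The medians were -0.44 at 250 nM and -0.88 at 500 nM. BRCA1 had 39.4, 9.91 and 8.08 CPM, a log2 fold change of -2.11 ± 0.31 (adjusted p = 0.00238). BLM, the helicase mutated in Bloom syndrome, had 36.6, 14.9 and 11.3 CPM and changed by -1.46 ± 0.33 (adjusted p = 0.0119). XRCC2, a recombination protein, had 34.7, 16.7 and 8.08 CPM. FANCI, which is modified with FANCD2 in crosslink repair, had 139, 56.1 and 65.2 CPM, with POLG overlapping on the other strand. The share that fell was 24.2% beside 6.04% of all genes. It is sensitive to the error estimate: 3 of the 8 calls held without the SNU449 library at 250 nM, and 2, BRCA1 and BLM, held under each removal of 1 library. Tested at each dose, 7 of the 33 fell at 250 nM and 16 at 500 nM, beside 5.1% and 17% of all genes.

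Among 21 genes of the DNA damage checkpoint 2 fell (9.52%) and 1 rose (4.76%), near or below the shares of all genes. ATR, the kinase that responds to stalled forks, had 36.4, 12.5 and 10.2 CPM and changed by -1.66 ± 0.33 (adjusted p = 0.00728). ATM, the kinase that responds to breaks, had 52.4, 27.7 and 22.6 CPM; its call was lost without either treated SNU449 library, and NPAT overlaps it on the other strand. H2AFX was the gene that rose. Of 42 DNA replication genes 9 fell (21.4%) and 4 rose (9.52%), beside 6.04% and 13.3% of all genes. In the 500 nM test 18 of the 42 fell and 6 rose, beside 17% and 20.9% of all genes. POLA2, a subunit of the polymerase alpha-primase complex, had 30.7, 9.78 and 5.66 CPM and changed by -1.94 ± 0.35 (adjusted p = 0.0048). GINS4, a subunit of the replicative helicase, had 65.0, 18.7 and 21.5 CPM. MCM2 and MCM7, subunits of the MCM ring of the same helicase, went up, with 179, 665 and 661 CPM and 494, 1264 and 1813 CPM. Both overlap genes on the other strand, TPRA1 and AP4M1. With total-count scaling 1 of the 4 rises held.

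Mitotic genes as a group stood higher at 250 nM than at 500 nM. The median log2 ratio of 25 was 0.38 at 250 nM and -0.23 at 500 nM, and 22 of the 25 had the lower ratio at 500 nM. Over both doses 3 rose (12%, near the 13.3% of all genes) and 0 fell. CDC20, the activator of the anaphase-promoting complex, had 154, 782 and 1255 CPM and changed by 2.72 ± 0.42 (adjusted p = 0.00263). PLK1, a mitotic kinase whose gene starts 200 bases after DCTN5, had 109, 414 and 298 CPM. CCNB2, a B-type cyclin, had 44.2, 121 and 78.9 CPM, which is at least 2-fold higher at 250 nM only, and the direct test of the doses gave -0.61 ± 0.33 (adjusted p = 0.285) for it. The difference between doses was not past the test for any of these genes. Total-count scaling puts the median at -0.11 at 250 nM and -1.18 at 500 nM, so the direction at 250 nM flips with the scaling and the order of the doses does not. In a bulk library the number of cells in mitosis and the RNA per such cell cannot be told apart.

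CDKN1A, which encodes the cell cycle inhibitor p21, had 2.15, 11.9 and 20.7 CPM, a log2 fold change of 2.88 ± 0.45 (adjusted p = 0.00263). Of the apoptosis regulators 5 of 19 rose (26.3%) and 2 fell (10.5%), beside 13.3% and 6.04% of all genes. Under each removal of 1 library 3 of the 5 rises and 0 of the 2 falls held. BBC3, which encodes the BH3-only protein PUMA, had 3.53, 11.5 and 17.2 CPM. BMF, a BH3-only protein that promotes apoptosis, had 34.0, 185 and 190.4 CPM and changed by 2.47 ± 0.36 (adjusted p = 0.00245). XIAP, an inhibitor of caspases, had 36.9, 16.6 and 4.31 CPM; it changed by -1.73 ± 0.48 (adjusted p = 0.0285), a call lost without either treated Hep3B library. BCL2L1, which encodes the survival protein BCL-XL, had 375, 253 and 171 CPM and MCL1, another survival protein, had 229, 314 and 534 CPM, neither past the test over both doses (-0.82 ± 0.37, adjusted p = 0.133 and 0.89 ± 0.40 (adjusted p = 0.141)). At 500 nM alone BCL2L1 was lower, by -1.13 ± 0.33 (adjusted p = 0.0235), and MCL1 higher, by 1.22 ± 0.29 (adjusted p = 0.0103). Both calls were lost without either treated SNU449 library, and that of MCL1 with total-count scaling.

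Among other kinases, cyclins and partners of transcription 4 of 19 rose (21.1%, beside 13.3% of all genes) and 0 fell. At 500 nM 6 rose and 3 fell, beside 20.9% and 17% of all genes in that test. HEXIM1, the inhibitor that holds the elongation kinase P-TEFb inactive, had 93.6, 582 and 1023 CPM, a log2 fold change of 3.10 ± 0.45 (adjusted p = 0.00242). CDK11A had 2.15, 24.7 and 43.6 CPM and its near-identical neighbour CDK11B had 24.7, 90.5 and 106 CPM, between which reads may be split. CCNL2, a cyclin that pairs with CDK11, had 97.6, 200.5 and 379 CPM; its call was lost without either treated Hep3B library and with total-count scaling. Splicing factor genes rose in 5 of 23 (21.7%) and fell in 1. U2AF2, which recognises the 3′ splice site, had 211, 1106 and 1843 CPM and changed by 2.81 ± 0.46 (adjusted p = 0.00325). CLK1, a kinase of SR proteins, had 38.3, 201 and 246 CPM. Cleavage and polyadenylation genes split, with 4 of 20 higher (20%) and 3 lower (15%, beside 6.04% of all genes). CLP1 had 55.7, 253 and 331 CPM and PCF11, a termination factor, had 60.1, 178 and 315 CPM, whereas CPSF2 had 85.3, 42.8 and 23.2 CPM, a call lost without the Hep3B library at 250 nM, and CSTF3 fell as given above.

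In most signalling and stress lists few genes were called, and the shares are read beside 13.3% higher and 6.04% lower of all genes. In the NF-kB list 5 of 16 rose (31.2%) and 1 fell. CXCL2, a neutrophil chemokine, had 0.718, 3 and 47.4 CPM, so most of the rise on the log2 scale lay between the doses. In the list of the integrated stress and unfolded protein response 6 of 21 rose (28.6%), with a median of 0.95 at 500 nM that went to 0.00 with total-count scaling. PPP1R15A, which restores translation after stress, had 53.6, 175 and 328 CPM. Mesenchymal genes rose in 6 of 19 (31.6%), with medians of 0.34 and 1.63. CTGF, a matricellular protein, had 250.4, 1729.5 and 4594 CPM and changed by 3.66 ± 0.60 (adjusted p = 0.00317), and SNAI1, a repressor of epithelial genes, had 9.16, 80.3 and 139 CPM. Of 15 epithelial keratin and junction genes 3 rose (20%) and 0 fell, with medians of 0.28 and 0.70. With total-count scaling the medians were 0.00 and 0.68 for the mesenchymal list and -0.11 and -0.17 for the epithelial list. Of the receptor tyrosine kinases 3 of 21 fell (14.3%) and 0 rose. ERBB3 had 164, 63.6 and 40.4 CPM and EGFR had 349, 173 and 119 CPM, the latter lost as a call without either treated SNU449 library. Of 19 glycolysis genes 4 rose (21.1%), with a median of 0.72 at 500 nM that turned to -0.23 with total-count scaling. GAPDH, often used as a reference gene, had 2497, 12216 and 21896 CPM, a log2 fold change of 2.77 ± 0.49 (adjusted p = 0.00452). Its start lies 1971 bases after NCAPD2. Cholesterol synthesis and uptake genes did not move as a group, with 1 of 22 higher, 0 lower and medians of 0.06 and 0.17.

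Markers of other cell types were low or were already in the control. COL1A1, a fibroblast collagen, had 56.6, 225 and 355 CPM. Of the 6 fibroblast and stellate markers tested 4 rose, beside 13.3% of all genes. The summed level of the 6 was 317, 748 and 1152 CPM. LYZ, a lysozyme also made by macrophages, had 120.3, 335 and 609.7 CPM, and of 3 immune markers tested 2 rose. The leukocyte marker PTPRC stood under 1 CPM in all 3 libraries, and the 1 endothelial marker tested was at 1.66, 1.7 and 2.69 CPM. Their part in the other results was not tested.

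**Figure D4:**
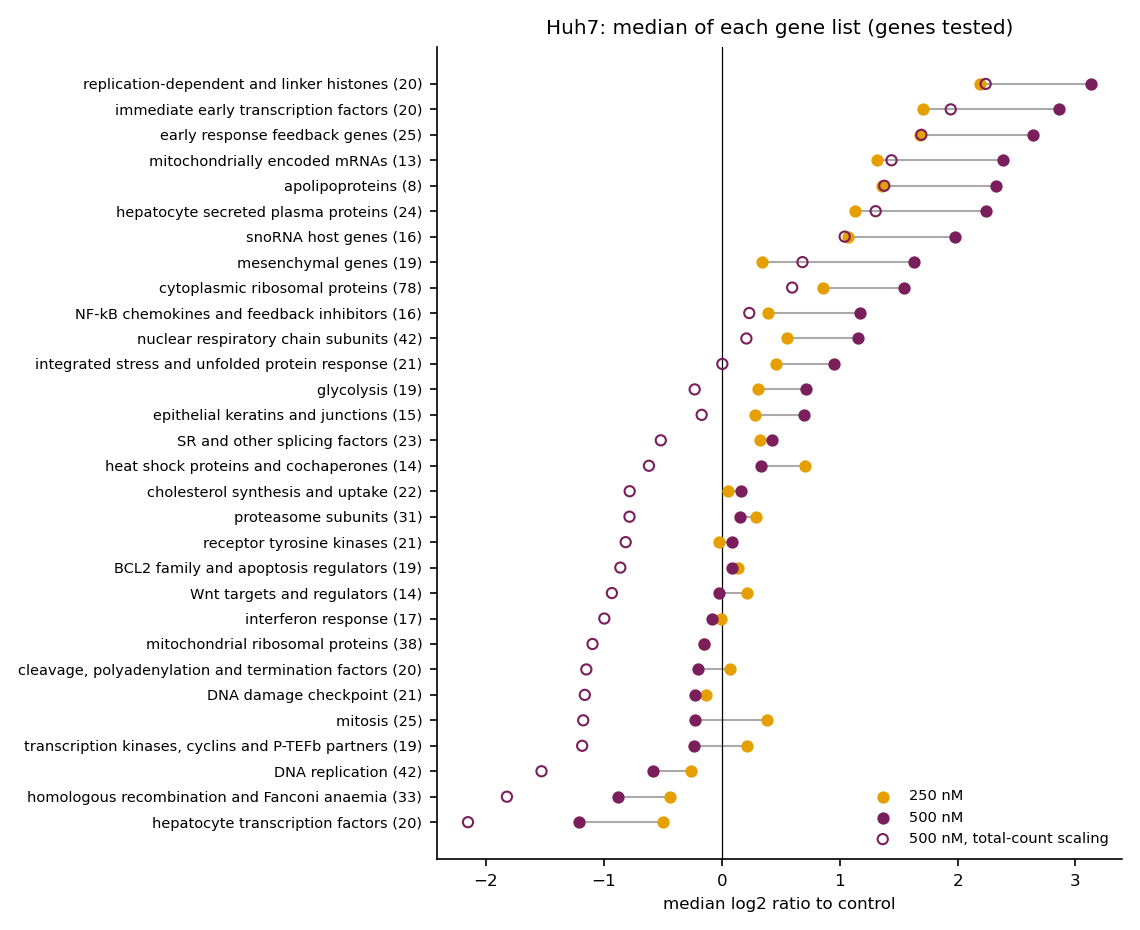
Median log2 ratio to control of gene lists with at least 8 genes tested (their number in parentheses), at 250 nM, at 500 nM, and at 500 nM with total-count scaling. Histone, early response, mitochondrial, apolipoprotein and plasma protein lists lie to the right at both doses, from 1.13 to 3.13 with TMM scaling, and hepatocyte transcription factors lie farthest to the left at 500 nM.

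Genes that moved at both doses and those that moved at 1 were set apart by a 2-fold limit in the 12409 genes with a mean of at least 2 CPM. At both doses 1730 (13.9%) were higher and 756 (6.09%) lower. At 500 nM alone 1009 (8.13%) were higher and 1715 (13.8%) lower, and at 250 nM alone 125 (1.01%) were higher and 308 (2.48%) lower. These classes are a description with no test. Most genes of the 500 nM classes leaned the same way at 250 nM. Their median log2 ratios at 250 and 500 nM were 0.61 and 1.38 for the risers and -0.55 and -1.28 for the fallers. The sign at 250 nM was opposite in 100 of the risers and 60 of the fallers. The 1715 fallers were long genes, with a median span of 64.0 kb against 11.3 kb in the 1009 risers.

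The genes that moved most at 1 dose had the following levels. EDN1, which encodes the vasoconstrictor endothelin-1, had 25.9, 40.6 and 179 CPM, with the rise at 500 nM; the direct test gave 2.14 ± 0.34 (adjusted p = 0.148). HES4, a transcriptional repressor, had 4.36, 6.78 and 22.6 CPM. HPS3, a subunit of a lysosome biogenesis complex, had 44.4, 23.1 and 7.54 CPM and lies opposite CP. Its 250 nM ratio of -0.94 falls just short of the 2-fold limit, and it passed the tests at 250 nM, at -0.94 ± 0.28 (adjusted p = 0.0452), and at 500 nM, at -2.56 ± 0.34 (adjusted p = 0.000594). The 250 nM call was lost without either treated SNU449 library and with DESeq2. RB1, the retinoblastoma tumour suppressor, had 66.6, 40.4 and 14.5 CPM. It was lower in the 500 nM test, at -2.19 ± 0.30 (adjusted p = 0.000699), but did not pass over both doses, at -1.24 ± 0.44 (adjusted p = 0.0653), nor in the direct test, at -1.47 ± 0.30 (adjusted p = 0.148), and LPAR6 overlaps it on the other strand. GCNT4, a glycosyltransferase, had 33.7, 17.2 and 5.66 CPM, and its ratio of -0.96 at 250 nM is also just short of the limit. Among the fallers at 250 nM alone, SARDH, which oxidises sarcosine, had 23.1, 5.09 and 11.6 CPM and a ratio of -0.99 at 500 nM, just short of the limit. AGMAT, an agmatinase, had 43.0, 10.3 and 34.7 CPM, and DNAJC16 overlaps it on the other strand. ACSF2, an acyl-CoA synthetase, had 22.2, 6.13 and 21.3 CPM. In each of these the 250 nM library was the lowest. At 500 nM AGMAT and ACSF2 stood close to the control, and SARDH lay between the other libraries. For AGMAT the direct test gave 1.75 ± 0.44 (adjusted p = 0.148) and for ACSF2 1.79 ± 0.47 (adjusted p = 0.148), neither past the threshold.

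Hep3B, the other hepatocyte-like line, was compared because it had the same doses and protocol. Over 11430 genes with a mean of at least 2 CPM in each line, the fitted response of Huh7 and that of Hep3B had a Pearson's r of 0.843 and a Spearman's rho of 0.768. This is a correlation across genes, given as a description, and the lines have separate controls. Of 1552 risers in Huh7 among these genes 1515 (97.6%) had the same sign in Hep3B, with median log2 fold changes of 2.0 in Huh7 and 1.41 in Hep3B. Of 831 fallers 797 (95.9%) did, with medians of -1.35 and -1.02. Both sets were chosen by the Huh7 values, so a larger median in Huh7 is not a finding. The Huh7 and Hep3B responses were also tested against each other, and 1 gene (0.00646%) passed, with 1028 at an unadjusted p under 0.05. DESeq2 called 34.

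That gene was ARRDC2, which encodes an arrestin domain protein. It had 0.331, 9.65 and 14.3 CPM in Huh7 in order of dose and 7.87, 5.65 and 6.9 CPM in Hep3B, so the treated libraries stood above the control in Huh7 and below it in Hep3B. The difference of the responses was 5.44 ± 0.66 (adjusted p = 0.0465). The call was lost without the Hep3B library at 250 nM (adjusted p = 0.557) or 500 nM (0.743), the Huh7 library at 500 nM (0.06) or the SNU449 control (0.0516). The Huh7 control held 6 counts of it, its mean was below the level set for naming genes, and it was chosen after its values were seen. S100A14, given above for Huh7, had 209, 828 and 656 CPM in Hep3B, a difference of 5.46 ± 0.75 (adjusted p = 0.0529). CDKN1C, the cell cycle inhibitor p57, had 1.66, 14.9 and 10.5 CPM in Huh7 and 83.1, 66.3 and 48.7 CPM in Hep3B, a difference of 3.48 ± 0.53 (adjusted p = 0.115). Neither passed. A test that calls 1 gene does not show that the lines respond alike. Data of the same design were simulated with changes only in Huh7, in genes with a mean of at least 10 CPM. There the test found 49% of 4-fold and 2% of 2-fold differences.

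**Figure D5:**
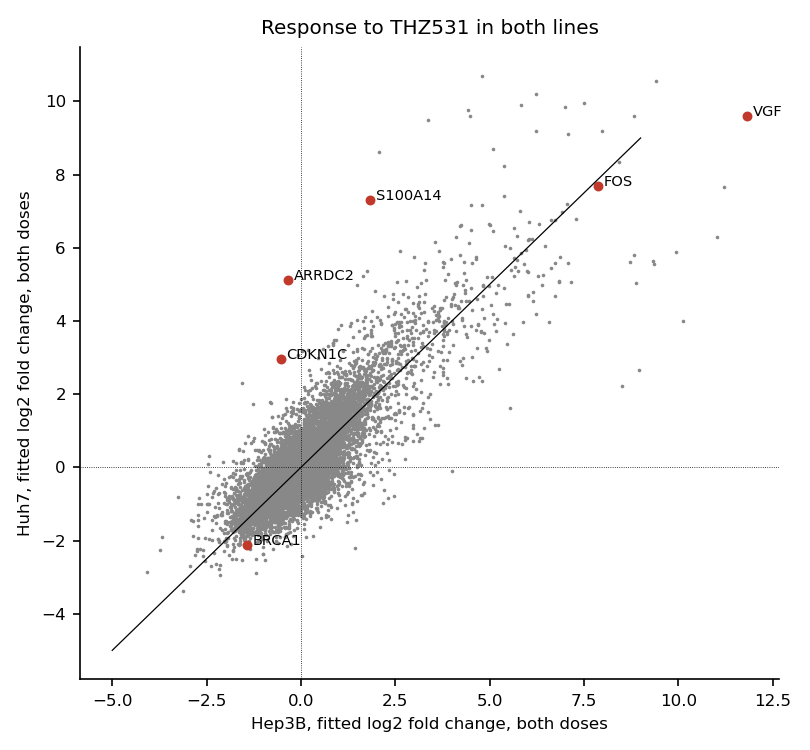
Fitted log2 fold change over both doses in Hep3B (horizontal) and Huh7 (vertical) for the 11430 genes with a mean of at least 2 CPM in each line and the named genes, with the line of equal response. Values against a control at or near 0 counts depend on the model and are no bound. ARRDC2, S100A14 and CDKN1C lie above the line, and most genes follow it.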

How the data were processed

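Per the labels' protocols, stranded TruSeq libraries were prepared from poly(A) RNA. The values the authors deposited are raw counts per Ensembl gene. HISAT2, HTSeq and the build GRCh38 are named in the submitters' processing notes; their versions, the annotation release and the strand setting were not given in the sources used here.

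Of 32990 genes 15479 passed filterByExpr on the dose groups. Counts were TMM-scaled. All 9 libraries entered the two-sided quasi-likelihood test of edgeR 4.0.16 under R 4.3.3, with Benjamini-Hochberg adjustment over all genes tested, at 0.05. The fit over both doses and of Huh7 minus Hep3B held 1 mean per line and state, so the 250 and 500 nM libraries of a line are its 2 treated libraries and any true dose difference counts as error (3 residual degrees of freedom). The tests of single doses held 1 mean per Huh7 library, and their error came from the treated pairs of Hep3B and SNU449 (2 residual degrees of freedom), which Huh7 is assumed to resemble. A standard error is the log2 fold change over the square root of its F. Ratios of single libraries have no test. Exons and strands came from GENCODE v29 (99.2% of tested genes matched), promoters from RefSeq.

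The cell line, the 35 gene lists and the rules were chosen with earlier results of these data known, so list counts are no independent support. Named genes were the targets, the 10 largest coding and 5 largest other changes each way over both doses among called genes with a mean of at least 10 CPM, the 5 leading genes of each dose class and comparison, and up to 4 members of each list by p. AFP, APOB, ARRDC2, ATF3, BCL2L1, CPSF2, CXCL2, HIST1H1C, HNF4A, JUNB, KLF6, MCL1, MCM7, MT-ND6, NR2F2, PPARA and PTPRC were chosen after their values were seen. A few genes and 1 list that the rules name are not reported here. On simulated counts for 15479 genes, 100 genes per fold were changed in Huh7, all with a mean of at least 10 CPM there. No other gene and no other line responded. The test over both doses found 93% of the 4-fold and 13% of the 2-fold changes, and the 500 nM test 68% and 4%. The test over both doses also called 10 unchanged genes. The 500 nM test and that of Huh7 minus Hep3B each called 3. Changes in lower genes and a shift in composition were not simulated. Alternatives were DESeq2 1.42.0, limma-voom (limma 3.58.1), other scalings, filters, prior counts and libraries left out.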

Additional observations from a re-analysis of the deposited data

Results flagged for a closer look

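The Huh7 response minus the Hep3B response of ARRDC2 was 5.44 on the log2 scale (adjusted p = 0.0465 in edgeR), a tested difference between the lines. It was above the control in both treated Huh7 libraries and below the control in both treated Hep3B libraries. The difference was 5.02 to 5.63 when 1 library other than the Huh7 and Hep3B controls was left out. Those controls could not be left out. The adjusted p was 0.557 without the Hep3B library at 250 nM, 0.743 without that at 500 nM, 0.06 without the Huh7 library at 500 nM, 0.0516 without the SNU449 control, 0.118 with RLE size factors, 0.0794 with a filter on Huh7 alone and 0.0535 with limma-voom. It stayed past the threshold with total-count scaling, with no filter, with DESeq2, with the Huh7 and Hep3B libraries only, and without the Huh7 library at 250 nM or either treated SNU449 library. The Huh7 control held 6 counts of it.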

How the results depend on the processing

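No paired analysis was possible because each line has 1 library per dose and the replicate numbers only name libraries. With total-count scaling the calls numbered 4774 over both doses, 4008 at 250 nM, 8982 at 500 nM and 3 for Huh7 minus Hep3B, CCNK turned to -0.22, and the 2-fold classes held 971 genes higher and 2685 lower at both doses and 363 higher and 3946 lower at 500 nM alone. Huh7 minus Hep3B called 0 genes with RLE size factors and with a filter on Huh7 alone, 92 with no filter, 34 with DESeq2 and 17 with only the Huh7 and Hep3B libraries. The direct test of the doses called 713 with no filter, 365 with DESeq2 and 22 with only Huh7 and Hep3B. The 250 nM test called 1591 with DESeq2 and 1403 with only Huh7 and Hep3B, where the 500 nM test called 3710. With the Huh7 libraries alone, which leave 1 residual degree of freedom, 1094 genes were called over both doses, 979 higher and 115 lower, and 28 of the calls among the named genes were lost. Leaving out 1 library gave 1860 to 6042 calls over both doses, 1345 to 8291 at 250 nM, 3676 to 9628 at 500 nM, 0 to 6032 between doses and 0 to 12 for Huh7 minus Hep3B. At 1.5-fold the classes held 2017 lower at both doses, and 343 higher and 557 lower at 250 nM alone. At 3-fold they held 937 higher and 120 lower at both, 635 lower at 500 nM alone, and 27 higher and 104 lower at 250 nM alone. The cause of these differences was not tested. No list median moved by 0.5 or changed sign with a prior count of 0.5, and 49 of 70 did with total-count scaling. The Huh7 control cannot be left out, and depth limits low genes most at 500 nM, where 1 count is 0.269 CPM.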
